A study of Homo sapiens with 6 samples.

Results

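The classical cadherins, protocadherins and FAT genes belong to the cadherin superfamily, whose proteins carry repeated calcium-binding extracellular domains. The desmosomal cadherins were not included. Members were chosen by symbol alone, as protein-coding genes named CDH followed by a number, PCDH, FAT1 to FAT4, DCHS1, DCHS2 or CELSR1 to CELSR3, and 98 of the 40488 genes in the table met that rule. Of these, 62 had enough reads to be tested and 36 did not. The measurements came from SCC90, an established human papillomavirus-positive oropharyngeal squamous cell carcinoma line. Cells were transfected with an siRNA against ΔNp63, the form of the transcription factor gene TP63 that lacks the N-terminal activation domain (siDNp63, 3 libraries), or with a scrambled siRNA (siCTRL, 3 libraries). Per the labels the ΔNp63 siRNA was used at 10 nM, while the study's methods give another concentration, and RNA was taken 72 h after transfection. All libraries came from this single line, and the labels do not say whether the replicates were separate cultures, so every p-value here reflects library-to-library scatter that could be purely technical. In bulk RNA, a change in the share of cells that express a gene and a change in RNA per cell cannot be told apart.

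Classical cadherins join neighbouring cells by binding like molecules on the opposite membrane, and their cytoplasmic tails hold catenins that link to actin. E-cadherin and P-cadherin are the usual pair in stratified epithelia, while N-cadherin is better known from neural and mesenchymal cells. Protocadherins lack the catenin-binding tail, and those of the alpha, beta and gamma clusters give neurons their individual surface identity. FAT, Dachsous and CELSR proteins are very large relatives that act in planar polarity and growth control, as first worked out in Drosophila.

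The targeted gene was checked first, in counts scaled between libraries by TMM (normalized counts), with errors of log2 fold changes given as standard errors. TP63 had 15520.1, 14474 and 15414 normalized counts in the siDNp63 libraries, against 42319, 44204 and 43700.1 in the siCTRL libraries (log2 fold change of -1.52 ± 0.04, edgeR adjusted p = 7.59e-07), so the labels held in every library. Library totals ran between 35716277 and 52598831 estimated counts, of which 94381 to 158738 fell on the 98 genes. In a principal component analysis, siDNp63 replicate 1 stood apart from the other siDNp63 libraries on the second component, and the calls of single cadherin genes that changed without it are given both ways. Squamous markers summed to 5300 to 5370 TPM (transcript abundance corrected for length and depth) in siDNp63 and 4740 to 4820 TPM in siCTRL. KRT6A alone had a mean of 3380 TPM over all libraries, and of the 10 squamous genes 5 were called higher and 3 lower, TP63 among the latter. The fibroblast list summed to 5.82 to 9.11 TPM in siDNp63 and 8.72 to 10.8 TPM in siCTRL, with COL1A1 the most abundant and PDGFRB and FAP, 2 of its 8 genes, at 0 counts. The leukocyte list summed to 11.7 to 12.6 TPM in siDNp63 and 14.5 to 16 TPM in siCTRL, and the melanocyte list to 10.2 to 12.1 TPM in siDNp63 and 14.1 to 17.2 TPM in siCTRL. Endothelial markers summed to 11.2 to 13.8 TPM in siDNp63 and 2.6 to 2.98 TPM in siCTRL. Of the 5 endothelial genes 3 were tested, and all 3 were called higher. Called lower were 1 of 3 tested fibroblast genes, 1 of 4 tested leukocyte genes and 2 of 3 tested melanocyte genes, with none higher. Across all genes tested, 18.4% were called higher and 15.2% lower. The part of these lists in the cadherin results was not tested.

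Of the 62 genes tested, 12 were higher and 10 were lower in siDNp63 cells at an edgeR adjusted p under 0.05, and 40 were not called. Across all 17257 genes tested, 18.4% were called higher and 15.2% lower, so that 35.5% of the cadherin genes against 33.6% of all genes were called, a share near the background. A change of more than 1 on the log2 scale as well was met by 3 of the genes upward (PCDHAC1, PCDH1 and PCDH19) and 1 downward (FAT2), where 2.35% and 1.71% of all genes were. In 27 of the 62, the siDNp63 libraries lay wholly above or wholly below the siCTRL libraries in normalized counts, against 49.4% of all genes tested. The median log2 fold change was 0 for the cadherin genes and -0.02 for all genes. Among the 30 tested genes outside the protocadherin clusters 8 were higher and 9 lower, and among the 32 tested clustered protocadherins 4 were higher and 1 lower. Abundance went with that split, which was not tested: 23 of the 30 and 13 of the 32 averaged 50 normalized counts or more in the higher of the groups, and all calls lay among those.

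**Figure D1:**
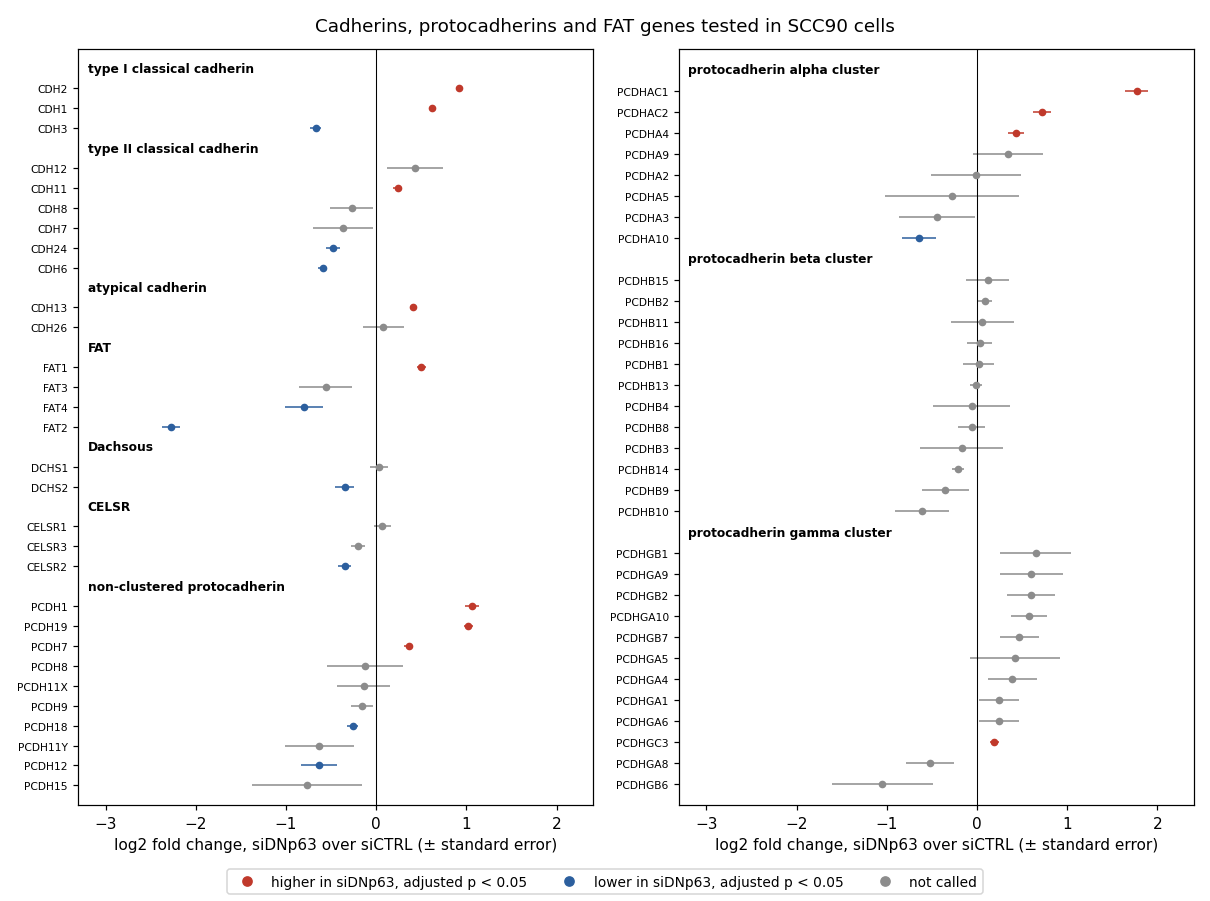
Log2 fold change of siDNp63 over siCTRL for each of the 62 tested genes by subfamily, with bars of 1 standard error, red for the 12 called higher, blue for the 10 called lower and grey for the 40 not called. FAT2 lies lowest at -2.27 and PCDHAC1 highest at 1.77, and no beta-cluster gene is coloured.

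The 4 genes that were called and moved by more than 1 on the log2 scale are shown by the 250 bases before their RefSeq start in GRCh38.p14. Capitals mark the E-box CAGGTG (searched on both strands, CACCTG on the other), which SNAI-family and related factors can bind.
FAT2, chr5:151591332-151591581, minus strand: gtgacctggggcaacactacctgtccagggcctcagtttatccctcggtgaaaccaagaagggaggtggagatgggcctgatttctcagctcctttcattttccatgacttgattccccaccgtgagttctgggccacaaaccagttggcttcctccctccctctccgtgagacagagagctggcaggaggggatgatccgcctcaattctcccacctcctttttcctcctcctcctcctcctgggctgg
PCDH1, chr5:141869628-141869877, minus strand: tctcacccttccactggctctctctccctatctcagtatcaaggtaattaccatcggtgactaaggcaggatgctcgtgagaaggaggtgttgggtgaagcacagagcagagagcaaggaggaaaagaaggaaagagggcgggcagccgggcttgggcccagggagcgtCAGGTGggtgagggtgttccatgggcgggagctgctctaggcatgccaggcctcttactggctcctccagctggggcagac
PCDH19, chrX:100410274-100410523, minus strand: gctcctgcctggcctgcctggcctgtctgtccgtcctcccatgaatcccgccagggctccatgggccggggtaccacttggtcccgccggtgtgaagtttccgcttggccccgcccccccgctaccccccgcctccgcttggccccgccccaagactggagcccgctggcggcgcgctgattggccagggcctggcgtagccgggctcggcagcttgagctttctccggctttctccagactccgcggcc
PCDHAC1, chr5:140926049-140926298, plus strand: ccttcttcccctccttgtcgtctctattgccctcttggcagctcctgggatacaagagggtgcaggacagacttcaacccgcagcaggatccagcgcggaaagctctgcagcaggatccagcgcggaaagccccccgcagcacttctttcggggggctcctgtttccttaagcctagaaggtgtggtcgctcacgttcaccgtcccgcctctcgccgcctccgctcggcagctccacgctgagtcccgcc
Only the PCDH1 stretch held the E-box, 81 to 76 bases before the start, and that RefSeq start lies 9619 bases inside the gene as GENCODE draws it. The E-box was in 17.5% of 35116 promoters of this length, and in 1 of the 15 called cadherin genes with an entry. A p53 family half-site, a motif added after the values were seen, was in 5.57% of all promoters and in 0 of those 15. The stretches had 56.8% GC for FAT2, 59.2% for PCDH1, 72% for PCDH19 and 63.2% for PCDHAC1. A match or its lack describes these letters only.

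Among type I classical cadherins, E-cadherin and N-cadherin were both higher in siDNp63 cells and P-cadherin was lower. CDH1 encodes E-cadherin, the main adhesion molecule of epithelia (chromosome 16, 68737292 to 68835537, plus strand, GRCh38). CDH1 had 54551, 52262 and 51352 normalized counts in the siDNp63 libraries, against 34486, 34098 and 34272 in the siCTRL libraries. The 3 siDNp63 libraries were all above the siCTRL libraries, by more than the spread within either group (log2 fold change of 0.62 ± 0.03, edgeR adjusted p = 1.07e-05). CDH1 was also the most abundant of the genes per length, at 711 ± 30.4 TPM in siDNp63 and 478 ± 10.9 TPM in siCTRL (SD, n = 3 each). CDH2 encodes N-cadherin (chromosome 18, 27932879 to 28177946, minus strand). CDH2 had 16788, 15960.5 and 15393 normalized counts in the siDNp63 libraries, against 8487, 8441 and 8531 in the siCTRL libraries, a gap far wider than the spread in either group (log2 fold change of 0.92 ± 0.04, edgeR adjusted p = 4.88e-06). Per length CDH2 stood at 161 ± 6.33 TPM in siDNp63 and 89 ± 0.785 TPM in siCTRL (SD, n = 3 each).

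CDH3, which encodes the P-cadherin of basal epithelial layers, went the other way (chromosome 16, 68636189 to 68727468, plus strand). CDH3 had 4840.2, 5695 and 5539 normalized counts in the siDNp63 libraries, against 8358, 8860.5 and 8358 in the siCTRL libraries. Every siDNp63 library lay below every siCTRL library (log2 fold change of -0.67 ± 0.06, edgeR adjusted p = 0.000168). The gene ends 9823 bases before CDH1 begins on the same strand, and these neighbours differed in direction. CDH3 stood at 93.8 ± 6.17 TPM in siDNp63 and 145 ± 13.8 TPM in siCTRL (SD, n = 3 each). In TPM, CDH2 was 0.227, 0.231 and 0.224 of CDH1 in the siDNp63 libraries, against 0.188, 0.18 and 0.191 in the siCTRL libraries. The same ratio from normalized counts averaged 0.304 in siDNp63 and 0.248 in siCTRL, where gene length is not taken out. CDH3 was 0.132 ± 0.014 of CDH1 in siDNp63 and 0.303 ± 0.0275 in siCTRL (SD, n = 3 each). E-cadherin made up 73.6% of the summed type I TPM in siDNp63 and 67.2% in siCTRL. CDH4 and CDH15, the R- and M-cadherins, were too low to test.

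**Figure D2:**
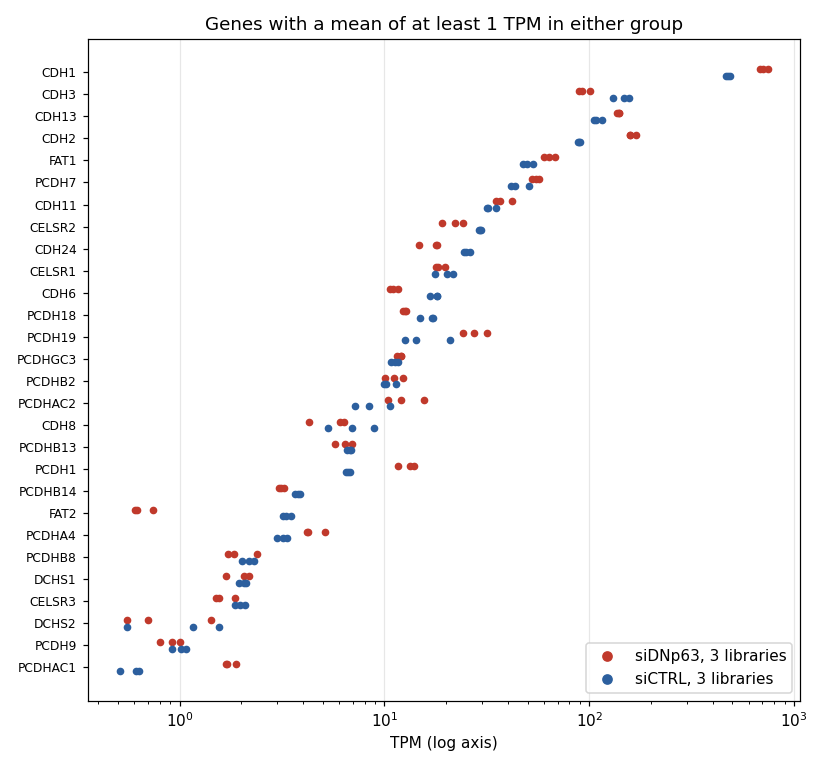
TPM in each library, on a logarithmic axis, of the 28 genes with a mean of at least 1 TPM in either group, with a point for each of 3 siDNp63 libraries (red) and 3 siCTRL libraries (blue), ordered by the siCTRL level. CDH1 tops the order with a mean of 711 TPM in siDNp63 and 478 TPM in siCTRL, and FAT2 shows the widest gap, with means of 0.654 TPM in siDNp63 and 3.34 TPM in siCTRL.

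Type II and atypical cadherins were mixed. CDH6, the kidney or K-cadherin, fell (log2 fold change of -0.59 ± 0.05, edgeR adjusted p = 6.4e-05). CDH6 had 1586, 1523 and 1529 normalized counts in the siDNp63 libraries, against 2411, 2352 and 2223 in the siCTRL libraries, with no overlap. CDH24 fell as well (log2 fold change of -0.48 ± 0.08, edgeR adjusted p = 0.00218). CDH24 had 1455, 1786 and 1737 normalized counts in the siDNp63 libraries, against 2315, 2373 and 2252 in the siCTRL libraries, and siDNp63 replicate 1 was the lowest. CDH11, known from osteoblasts and mesenchyme, rose slightly (log2 fold change of 0.24 ± 0.05, edgeR adjusted p = 0.00654). CDH11 had 2860.3, 2685 and 2799 normalized counts in the siDNp63 libraries, against 2229, 2388 and 2441 in the siCTRL libraries, again with no overlap, but the call was lost in the TPM fit with limma (adjusted p = 0.17). The other 3 tested type II genes, CDH8, CDH7 and CDH12, had values between -0.37 and 0.43 on the log2 scale and were not called, and CDH8 was the most abundant of them at 5.59 ± 1.12 TPM in siDNp63 and 7.04 ± 1.79 TPM in siCTRL. CDH5, the VE-cadherin that defines endothelium, was too low to test, with 15 estimated counts over all 6 libraries.

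CDH13 encodes T-cadherin, which is held by a lipid anchor in place of a membrane span. CDH13 had 11521, 11508 and 10995 normalized counts in the siDNp63 libraries, against 8565, 8437 and 8624 in the siCTRL libraries. The groups were clearly apart (log2 fold change of 0.41 ± 0.04, edgeR adjusted p = 0.000113), at 139 ± 1.29 TPM in siDNp63 and 109 ± 5.46 TPM in siCTRL (SD, n = 3 each), below only CDH1 and CDH3 in the siCTRL libraries. CDH26 was not called (log2 fold change of 0.08 ± 0.23, edgeR adjusted p = 0.829).

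The FAT genes held the strongest fall of the family. FAT2, a FAT gene expressed in keratinocytes, lies on chromosome 5, 151504092 to 151591331, minus strand. FAT2 had 322, 265 and 263 normalized counts in the siDNp63 libraries, against 1299, 1338 and 1451 in the siCTRL libraries. No siDNp63 library came near the siCTRL level, which was 4.82-fold higher (log2 fold change of -2.27 ± 0.10, edgeR adjusted p = 3.8e-06). FAT1, whose gene is recurrently mutated in squamous carcinomas, was higher. FAT1 had 16572, 14939 and 16151 normalized counts in the siDNp63 libraries, against 10950, 11069 and 11627 in the siCTRL libraries. These groups too did not overlap (log2 fold change of 0.50 ± 0.05, edgeR adjusted p = 0.000182). The FAT1 to FAT2 ratio of TPM was 98.6 ± 13.9 in siDNp63 and 15 ± 0.586 in siCTRL (SD, n = 3 each).

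FAT4, which binds Dachsous on the next cell, was low and lower in siDNp63. FAT4 had 119, 69.3 and 82 normalized counts in the siDNp63 libraries, against 167, 142 and 158 in the siCTRL libraries. The call (log2 fold change of -0.80 ± 0.21, edgeR adjusted p = 0.0191) was lost without siDNp63 replicate 3 (adjusted p = 0.0712), siCTRL replicate 1 (adjusted p = 0.0649) or siCTRL replicate 3 (adjusted p = 0.0576), and in the TPM fit with limma (adjusted p = 0.289). FAT3 had 70.4, 32.5 and 42.9 normalized counts in the siDNp63 libraries, against 74.6, 78 and 59.7 in the siCTRL libraries. FAT3 was not called (log2 fold change of -0.56 ± 0.29, edgeR adjusted p = 0.178) and its siDNp63 replicate 1, the library that stood apart, lay within the siCTRL range. Without that library the value was -0.91 (edgeR adjusted p = 0.0151).

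Dachsous and CELSR genes moved little. DCHS1, the partner of FAT4, was not called (log2 fold change of 0.03 ± 0.10, edgeR adjusted p = 0.854). DCHS2 had 139.5, 125 and 135 normalized counts in the siDNp63 libraries, against 173, 176 and 161 in the siCTRL libraries. DCHS2 passed narrowly (log2 fold change of -0.35 ± 0.11, edgeR adjusted p = 0.0451), and the call was lost with DESeq2 (adjusted p = 0.131) and in 5 of the 6 leave-one-out fits. A second, unnamed gene ID carried the same counts as DCHS2 in every library. In all, 3 of the 98 genes had counts identical to those of another gene ID. CELSR proteins are the vertebrate relatives of the fly protein Flamingo. CELSR2 had 5734, 6734 and 6904 normalized counts in the siDNp63 libraries, against 8277, 8215 and 8224 in the siCTRL libraries. CELSR2 fell (log2 fold change of -0.35 ± 0.07, edgeR adjusted p = 0.00545), with siDNp63 replicate 1 lowest. CELSR1 was not called (log2 fold change of 0.07 ± 0.09, edgeR adjusted p = 0.583), but without siDNp63 replicate 1 it was higher by 0.17 (edgeR adjusted p = 0.0215). CELSR3 was not called (log2 fold change of -0.20 ± 0.08, edgeR adjusted p = 0.0968) although its groups did not overlap, and it was called at -0.29 (adjusted p = 0.0311) when counts were scaled by library size alone.

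**Figure D3:**
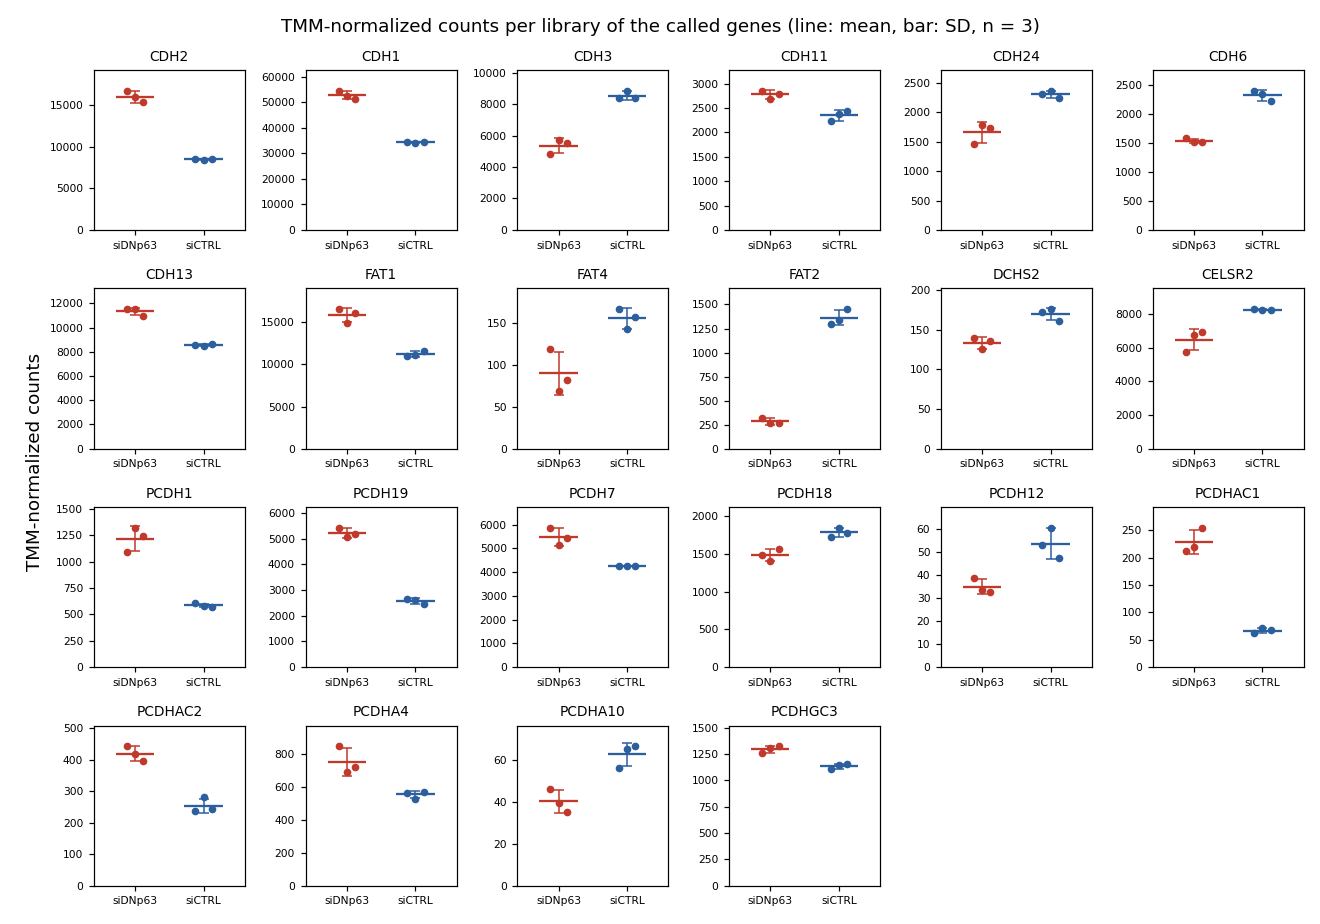
TMM-normalized counts in each library for the 22 called genes, siDNp63 on the left and siCTRL on the right of each panel, with the mean as a line and the SD as a bar (n = 3). In all 22 panels the groups do not overlap, but these genes were chosen by their calls on the same libraries. Of all 62 tested genes 27 had no overlap, against 49.4% of all genes tested. The widest gaps are those of FAT2 and PCDHAC1.

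Among the protocadherins outside the clusters, PCDH1 and PCDH19 rose by more than 1 on the log2 scale. PCDH1 is an adhesion protein of airway epithelium, and it lies on chromosome 5, 141853090 to 141879246, minus strand. PCDH1 had 1092, 1322 and 1246 normalized counts in the siDNp63 libraries, against 606, 576 and 573 in the siCTRL libraries. The lowest siDNp63 library was above the highest siCTRL library (log2 fold change of 1.06 ± 0.08, edgeR adjusted p = 5.32e-05). PCDH19, an X-linked gene whose loss causes epilepsy, binds N-cadherin. PCDH19 had 5422, 5062 and 5192 normalized counts in the siDNp63 libraries, against 2638, 2622 and 2442 in the siCTRL libraries. This gene had little spread of counts within groups (log2 fold change of 1.02 ± 0.05, edgeR adjusted p = 4.93e-06), at 27.7 ± 3.77 TPM in siDNp63 and 15.9 ± 4.39 TPM in siCTRL (SD, n = 3 each).

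PCDH7 rose by less. PCDH7 had 5863, 5123 and 5426 normalized counts in the siDNp63 libraries, against 4272, 4269 and 4267 in the siCTRL libraries, and siDNp63 replicate 1 was the highest (log2 fold change of 0.36 ± 0.05, edgeR adjusted p = 0.00137), and the call was lost in the TPM fit with limma (adjusted p = 0.0721). PCDH18 fell slightly. PCDH18 had 1483, 1405 and 1567 normalized counts in the siDNp63 libraries, against 1726, 1845 and 1782 in the siCTRL libraries (log2 fold change of -0.26 ± 0.06, edgeR adjusted p = 0.00771). PCDH12, an endothelial protocadherin, was near the lower limit of the test. PCDH12 had 38.4, 33.4 and 32.4 normalized counts in the siDNp63 libraries, against 52.9, 60.3 and 47.3 in the siCTRL libraries. Its call (log2 fold change of -0.63 ± 0.20, edgeR adjusted p = 0.0402) was lost with DESeq2 (adjusted p = 0.149) and in 5 of the 6 leave-one-out fits. It was lower while the endothelial marker sum was higher, and their relation was not tested. The other 5 tested genes were not called, with PCDH9 the most abundant (log2 fold change of -0.16 ± 0.12, edgeR adjusted p = 0.344), and PCDH11X and its close copy PCDH11Y may exchange reads.

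The clustered protocadherins lie in tandem on chromosome 5 and are chosen in neurons by alternative promoters under CTCF and cohesin. All 15 alpha genes end within 10 bases of the same position, as do all 22 gamma genes, because they share constant last exons, so the counts of single alpha and gamma genes rest on how the reads were divided by estimate. The sums per cluster do not depend on that division. Neuronal and glial markers summed to 3.34 to 5.14 TPM in siDNp63 and 3.94 to 4.27 TPM in siCTRL. Of the 4 tested, 1 was called higher and 1 lower, and the part of these markers in the cluster values was not tested. The alpha cluster (140786136 to 141012347) had 1660.1, 1458 and 1480.1 normalized counts in the siDNp63 libraries, against 1000.3, 1046 and 1027 in the siCTRL libraries. Its sum was higher in siDNp63 (log2 fold change of 0.58 ± 0.06, edgeR adjusted p = 0.000341). The beta cluster (141051374 to 141249365), whose genes are single exons with no shared end, had 2499.6, 2243 and 2348 normalized counts in the siDNp63 libraries, against 2479, 2408 and 2417 in the siCTRL libraries. Those values overlapped (log2 fold change of -0.04 ± 0.05, edgeR adjusted p = 0.522). The gamma cluster (141330514 to 141512977) had 1675, 1751 and 1802 normalized counts in the siDNp63 libraries, against 1447, 1506 and 1531 in the siCTRL libraries. That sum was higher (log2 fold change of 0.22 ± 0.05, edgeR adjusted p = 0.00888), but not in the TPM fit with limma, where it was 0.11 (adjusted p = 0.33).

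Within the alpha cluster 3 of the 8 tested genes rose and 1 fell, where 18.4% of all genes were called higher and 15.2% lower. Only those 4 averaged 50 normalized counts or more in the higher group. Reads of the shared alpha exons were divided by estimate, so these calls are not separate observations. PCDHAC1 had 212, 220 and 255 normalized counts in the siDNp63 libraries, against 61.6, 70.7 and 68.7 in the siCTRL libraries. All siDNp63 values of this C-type gene were well above siCTRL (log2 fold change of 1.77 ± 0.13, edgeR adjusted p = 4.7e-05), and its share of the alpha counts was 15% in siDNp63 and 6.55% in siCTRL. PCDHAC2 had 442, 418 and 395 normalized counts in the siDNp63 libraries, against 237, 279.8 and 242 in the siCTRL libraries. PCDHAC2, also of the C type, did not overlap either (log2 fold change of 0.72 ± 0.10, edgeR adjusted p = 0.00104), though the TPM fit with limma did not call it (adjusted p = 0.117). PCDHA4 had 848, 690 and 721 normalized counts in the siDNp63 libraries, against 566, 530.4 and 573 in the siCTRL libraries. PCDHA4 was the largest contributor, at 49% of the alpha counts in siDNp63 and 54.5% in siCTRL, and rose less (log2 fold change of 0.43 ± 0.09, edgeR adjusted p = 0.00842). PCDHA10 had 46.1, 39.4 and 35.3 normalized counts in the siDNp63 libraries, against 56.4, 65.5 and 66.5 in the siCTRL libraries, and its fall (log2 fold change of -0.64 ± 0.19, edgeR adjusted p = 0.032) was lost with DESeq2 (adjusted p = 0.106) and in 5 of the 6 leave-one-out fits. The other 4 tested alpha genes had at most 34.6 normalized counts in any library and were not called, PCDHA9 being the most abundant (log2 fold change of 0.34 ± 0.39, edgeR adjusted p = 0.551).

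None of the 12 tested beta genes was called by edgeR, against 33.6% of all genes tested, and 1 had an unadjusted p under 0.05. Their log2 fold changes ran between -0.61 and 0.12, and 7 of the 12 averaged 50 normalized counts or more in the higher group. DESeq2 called none of them, and limma-voom called 1. PCDHB2 was the most abundant per length at 11.2 ± 1.11 TPM in siDNp63 and 10.5 ± 0.8 TPM in siCTRL. PCDHB14 had 394, 389 and 378 normalized counts in the siDNp63 libraries, against 443, 452 and 443 in the siCTRL libraries, without overlap. PCDHB14 was not called in edgeR (log2 fold change of -0.21 ± 0.07, edgeR adjusted p = 0.0607), but it passed in limma-voom and in edgeR with library size alone, with at least 10 counts in every library or without siDNp63 replicate 1 (log2 fold change of -0.22, adjusted p = 0.0447). Of the 12 tested gamma genes, 1 was higher, 10 had a value above 0 and 2 below it, where 8114 of all 17257 genes tested were above 0 and 9143 below. Only 2 gamma genes averaged 50 normalized counts or more in the higher group. Reads of the shared gamma exons were divided by estimate, so these signs are not separate observations. PCDHGC3, a C-type gene, held 74% of the gamma counts in siDNp63 and 76% in siCTRL. PCDHGC3 had 1257, 1303 and 1322 normalized counts in the siDNp63 libraries, against 1107, 1145 and 1151 in the siCTRL libraries. It was narrowly called (log2 fold change of 0.19 ± 0.05, edgeR adjusted p = 0.0187), and the call was lost in 4 of the 6 leave-one-out fits, and in the TPM fit with limma the value was 0.08 (adjusted p = 0.518). PCDHGA10 had 133, 89.9 and 107 normalized counts in the siDNp63 libraries, against 63.3, 88.4 and 68.7 in the siCTRL libraries, and was not called (log2 fold change of 0.58 ± 0.20, edgeR adjusted p = 0.0635) except without siDNp63 replicate 2 (0.71, edgeR adjusted p = 0.0437). PCDHGA9 was not called either (log2 fold change of 0.60 ± 0.35, edgeR adjusted p = 0.234), but it was without siDNp63 replicate 1 (0.88, edgeR adjusted p = 0.0261).

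**Figure D4:**
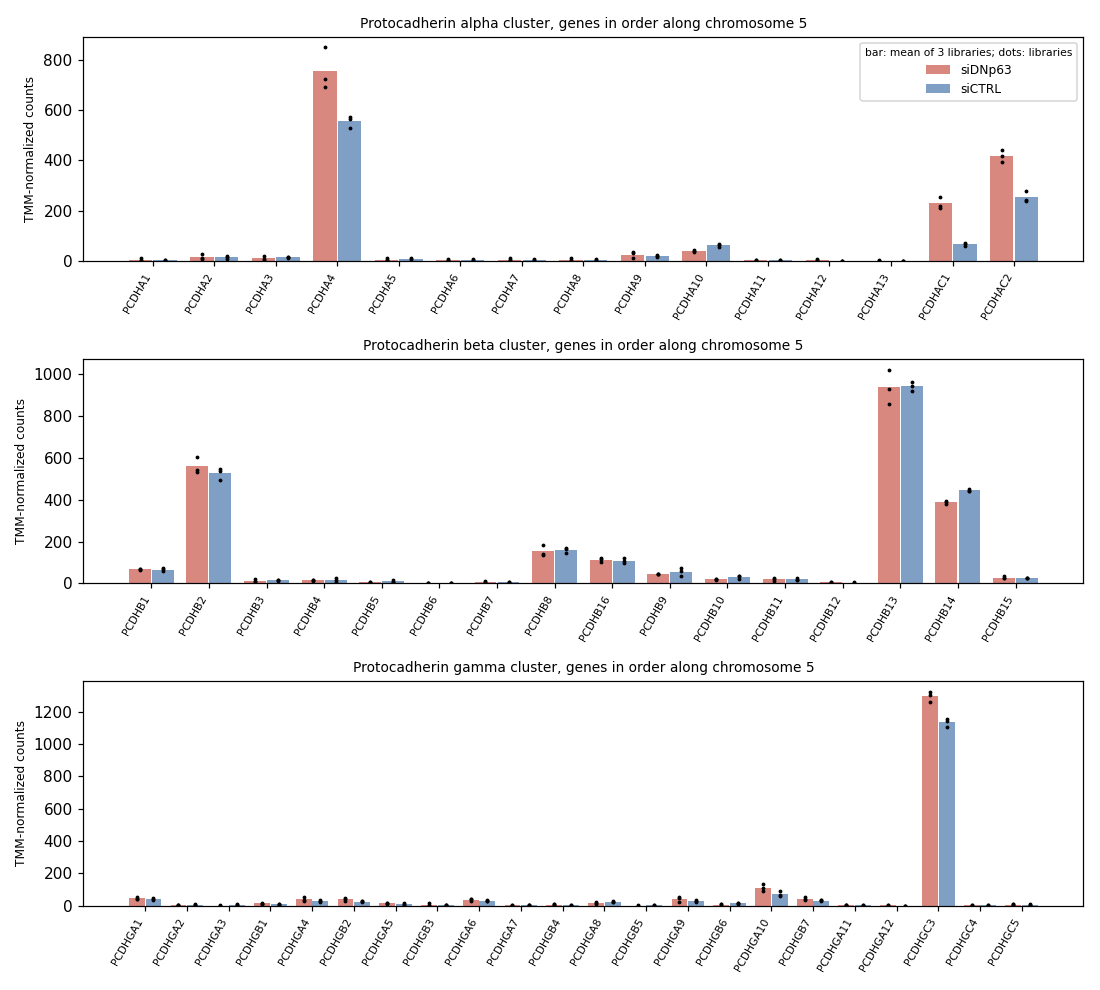
Normalized counts of each of the 15 alpha, 16 beta and 22 gamma genes in their order along chromosome 5, with bars for the mean of the 3 siDNp63 or 3 siCTRL libraries and dots for the libraries. A few genes hold most counts of each cluster, and PCDHAC1 shows the clearest gap, at 212 to 255 in siDNp63 and 61.6 to 70.7 in siCTRL.

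The 36 untested genes had between 0 and 53 estimated counts over all 6 libraries, and none exceeded 0.651 TPM in any library. PCDH20 was at 0 in all of them. These genes were not measurable at this depth, which is not a statement that they are silent.

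Proteins that work with the cadherins were listed by role. Of the 16 tested catenin and junction plaque genes, 8 were higher and 4 lower. NECTIN4 (log2 1.09 ± 0.04, adjusted p = 1.42e-06) and NECTIN3 (log2 0.79 ± 0.06, adjusted p = 6.36e-05), adhesion proteins tied to the same junction, rose. So did CTNNA1 (log2 0.34 ± 0.03, adjusted p = 0.000149), the alpha-catenin, while AJUBA (log2 -0.57 ± 0.04, adjusted p = 4.29e-05), a LIM protein at junctions, fell. Nectins and catenins went both ways. NECTIN1 (log2 -0.32 ± 0.05, adjusted p = 0.00247) and CTNND1 (log2 -0.33 ± 0.09, adjusted p = 0.0206) fell, and NECTIN2 (log2 0.39 ± 0.12, adjusted p = 0.0358) and CTNNB1 (log2 0.18 ± 0.04, adjusted p = 0.00752) rose. Of 13 planar polarity genes, 3 were higher and 4 lower, among them PTK7 (log2 -1.16 ± 0.07, adjusted p = 1.32e-05) and FZD6 (log2 -0.44 ± 0.04, adjusted p = 0.000239), receptors that fell, and VANGL1 (log2 0.47 ± 0.03, adjusted p = 3.7e-05), which rose. Without siDNp63 replicate 1, 5 polarity genes were called higher, and by TPM 1 was. Of 15 genes linked to FAT and Dachsous signalling, 6 were higher and 2 lower. WWC1 (log2 0.89 ± 0.05, adjusted p = 8.3e-06), VASP (log2 0.79 ± 0.05, adjusted p = 1.17e-05) and LATS2 (log2 0.50 ± 0.05, adjusted p = 0.000257) were among those that rose. The Hippo pathway genes of this list were mixed. WWC1, LATS2, STK3 and STK4 rose, SAV1 fell (log2 -0.19 ± 0.06, adjusted p = 0.0471), and LATS1, MOB1A, MOB1B and NF2 were not called. By TPM 3 of the 15 were higher and 1 lower, and 1 was lower when any single library other than siDNp63 replicate 1 was left out. Of 12 transcriptional regulators of CDH1, 2 were higher and 1 lower. The one that fell was SNAI2 (log2 -1.28 ± 0.06, adjusted p = 4.4e-06), a repressor of E-cadherin. Those that rose were OVOL2 (log2 0.56 ± 0.08, adjusted p = 0.00116), an epithelial factor, and TCF4 (log2 0.17 ± 0.05, adjusted p = 0.0252). The other 9 were not called. Without siDNp63 replicate 1, 4 regulators were called higher and 2 lower, and 1 was called higher without siDNp63 replicate 3, siCTRL replicate 1 or siCTRL replicate 2. Of 11 tested proteases that cut cadherins or their fragments, 3 were higher, including ADAM17 (log2 0.27 ± 0.04, adjusted p = 0.00142), and 2 were lower, MMP14 (log2 -0.41 ± 0.05, adjusted p = 0.000377) and APH1B (log2 -0.96 ± 0.11, adjusted p = 0.000468). By TPM ADAM17 was not called (limma adjusted p = 0.147), 1 protease was higher, and with library size alone 4 were lower. Of 9 trafficking genes, 4 were higher and none lower, also at an unadjusted p under 0.05 in edgeR, including NUMB (log2 0.56 ± 0.04, adjusted p = 5.88e-05). Leaving out any 1 library gave 1 to 3 trafficking genes higher, with 1 without siDNp63 replicate 3 or siCTRL replicate 2 and 2 without siDNp63 replicate 2, siCTRL replicate 1 or siCTRL replicate 3, and DESeq2 gave 2. Of 18 chromatin regulators of the protocadherin clusters, 5 were higher and 1 lower, with CTCF (log2 0.21 ± 0.04, adjusted p = 0.00553) and STAG1 (log2 0.39 ± 0.04, adjusted p = 0.000349) higher and SMC1A (log2 -0.19 ± 0.04, adjusted p = 0.00598) lower. Without siDNp63 replicate 2, 8 chromatin regulators were called higher. By TPM 1 was called higher and CTCF was not called (limma adjusted p = 0.125), and with library size alone 4 were called lower. The desmosomal cadherins, outside the chosen genes, had 5 of 7 higher and 1 lower, with DSC2 (log2 0.70 ± 0.05, adjusted p = 3.02e-05) and DSG3 (log2 0.38 ± 0.06, adjusted p = 0.00138) higher. DSG4 (log2 2.23 ± 0.27, adjusted p = 0.000517) and DSG1 (log2 1.54 ± 0.32, adjusted p = 0.00793) rose more, at low means of 62.8 and 130.5 normalized counts in siDNp63. The lower desmosomal gene was lost without siDNp63 replicate 2, siDNp63 replicate 3 or siCTRL replicate 3. Adjusted p-values of these lists not marked as limma are from edgeR over the whole table, and in that fit 18.4% of all genes were higher and 15.2% lower. The background differed in the other fits. Library size alone called 2330 of 17257 genes higher and 4117 lower, and limma on TPM called 1521 of 21150 higher and 2076 lower. Without siDNp63 replicate 1, 3653 of 17804 were higher and 3187 lower, and without siDNp63 replicate 2, 3086 of 17558 were higher and 2277 lower.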

How the data were processed

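Poly(A) RNA of SCC90 cells was sequenced in 3 siDNp63 and 3 siCTRL libraries made with a stranded kit. Per the submitters' processing notes, bcl2fastq 2.17.1.14 and kallisto 0.46.2 were used with hg38, and their annotation release was not given in the sources used here. Estimated counts per gene were deposited by the authors and rounded to whole numbers here. The authors also deposited TPM, which was used for levels per length. No column was left out. Gene names came from a table of IDs (30084 genes had a symbol), and coordinates from GENCODE release 44. Counts were tested with edgeR 4.0.16 (quasi-likelihood, TMM, filterByExpr with a minimum count of 10) over 17257 genes with Benjamini-Hochberg adjustment in R 4.3.3. Alternatives were DESeq2 1.42.0, limma 3.58.1 (voom, or log2 TPM with a pseudocount of 0.1), other scalings and filters, a replicate block and each library left out in turn. Errors are standard errors of log2 fold changes unless named SD. Scripts were tested on simulated data. Named were all called genes, all tested type I, FAT, Dachsous and CELSR genes, the most abundant tested gene not called of each subfamily, and up to 4 genes of each partner list with the smallest p. PCDHB14, PCDHGA9, STK3, SAV1, NECTIN1, NECTIN2, CTNND1, CTNNB1 and untested or unremarkable genes named in passing were chosen after their values were seen. The genes and lists were chosen with earlier results of these data known. An exact permutation test planned for the CDH2 to CDH1 ratio is not given, because the ratio was chosen with its values known.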

Additional observations from a re-analysis of the deposited data

How the results depend on the processing

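Of 794 alternative values for most of the single genes named in the text, 732 kept direction and side of the threshold, 42 were no longer past it, 9 newly passed and 11 changed sign, all of CELSR1, DCHS1 or CDH26, which were not called. With library size as the only scaling the log2 fold changes were -0.01 for CELSR1, -0.05 for DCHS1 and -0.01 for CDH26, and by TPM -0.08 for CELSR1 and -0.05 for DCHS1. Leaving out each library gave 0 to 0.17 for CELSR1, -0.03 to 0.13 for DCHS1, -0.01 to 0.22 for CDH26 and -0.09 to 0.01 for the beta sum. With 12 genes higher and 10 lower in edgeR, DESeq2 called 12 and 7, limma-voom 12 and 11, and limma on TPM 8 and 7. An adjusted p under 0.005 left 4 lower, and a log2 change over 1 left 3 higher and 1 lower. Leaving out each library gave 11 to 14 higher and 6 to 12 lower, with 6 lower without siDNp63 replicate 3, siCTRL replicate 1 or siCTRL replicate 3. The gamma sum was 0.11 by TPM, and the difference in the CDH2 to CDH1 ratio was 0.056 by counts. A replicate block gave 11 higher and 7 lower, and same-numbered libraries did not deviate together (correlations of -0.01, 0.02 and 0.03). With library size as the only scaling, the median over all genes was -0.11 and 36.1% of calls were higher, against -0.02 and 54.7% with TMM, and limma on TPM gave 42.3%. The genes called narrowly (DCHS2, PCDH12, PCDHA10 and PCDHGC3) were lost most often. Low-count members are limited by depth, and the causes of the lost calls were not tested.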
